A study of Mus musculus with 12 samples.

Results

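The genes described here are Nampt, Por, Usp2, Tspan4 and Leo1. These 5 were grouped as output genes of the circadian clock proteins CLOCK and BMAL1, a status that was not tested here. They were taken by name, together with every BMAL1-bound region listed within 50 kb of their annotated starts. The 5 genes are 5 of the 23420 genes in the count table, and all 5 were among the 13216 genes with enough reads to be tested. Their neighbourhoods held 11 of the 4740 BMAL1 regions: 2 near Nampt, 2 near Por, 1 near Usp2, 5 near Tspan4 and 1 near Leo1.

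The study used mouse embryonic fibroblasts, which are connective tissue cells cultured from embryos, on a 129/sv background. All cells in all groups carried the genotype per1 -/-, per2 -/-, nr1d1 -/-, nr1d2 -/- and the transgene PER2-ER, in which the clock protein PER2 is joined to an estrogen receptor part that responds to 4-hydroxytamoxifen (4-OHT). Cells received 1 µM 4-OHT or the solvent, 0.1% ethanol (EtOH), for 4 h, and the comparison asks how BMAL1 on DNA and mRNA differ once PER2-ER is activated. Each treatment had 2 libraries of mRNA sequencing, 2 of BMAL1 chromatin immunoprecipitation (ChIP) and 2 of input chromatin, which is sheared DNA sequenced without the antibody. Cells without the transgene, and 4-OHT without PER2-ER, were not analysed here, so an action of 4-OHT itself and one of PER2-ER cannot be told apart. The promoter that drives the transgene, and whether the line is 1 clone, are not given in the sources used here. Whether the 2 libraries of a group are separate cultures is not stated in the labels. The p-values therefore reflect variation among these libraries alone, and that variation may be technical.

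CLOCK and BMAL1 form a pair that binds short DNA elements called E-boxes, of which CACGTG is the classical form, and activates transcription nearby. PER and CRY proteins are made from genes that this pair activates, and they act back on it as inhibitors. REV-ERB proteins, encoded by Nr1d1 and Nr1d2, are repressors that link the loop to Bmal1 transcription and to metabolism, and clock output genes carry the rhythm into pathways such as NAD synthesis, drug metabolism and protein turnover.

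Assigned mRNA reads ranged from 60267540 to 89695667 per library, ChIP reads from 13502201 to 20712373 and input reads from 12481308 to 33454366. Of 11 fibroblast marker genes 9 were tested, and their summed level was 27834 to 30142 CPM under EtOH and 28488 to 30407 CPM under 4-OHT, where CPM is reads per 1000000 assigned reads, while Thy1 and Lum had 0 reads in every library. Summed markers of other cell types were low, at 24.7 to 30.8 CPM over all 4 libraries for muscle genes, 12.5 to 16.8 CPM for epithelial, 3.11 to 3.47 CPM for myeloid and 0.067 to 0.158 CPM for endothelial genes, and no marker was called. Counts summed over exons do not check the knockouts, since a deleted gene can still give reads and the PER2-ER reads cannot be told apart from Per2. The Per2 level was 558 ± 12.0 CPM (SD, n = 2) in the EtOH group against 581 ± 40.6 CPM under 4-OHT.

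The promoter sequences of 4 of the genes are shown first because BMAL1 regions covered these starts and because they differ in the E-box. Each line gives the 150 bases before a RefSeq start of the named gene on the plus strand, build GRCm38.p6 (mm10), 5′ to 3′. A run of 6 capitals marks CACGTG, and the single capital in each line marks the summit base recorded for the BMAL1 region that covers it.
Tspan4, second start, chr7:141476230-141476379: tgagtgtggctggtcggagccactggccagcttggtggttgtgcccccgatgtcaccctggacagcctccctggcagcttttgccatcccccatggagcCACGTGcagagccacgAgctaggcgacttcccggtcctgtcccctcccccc
Usp2, internal start, chr9:44084770-44084919: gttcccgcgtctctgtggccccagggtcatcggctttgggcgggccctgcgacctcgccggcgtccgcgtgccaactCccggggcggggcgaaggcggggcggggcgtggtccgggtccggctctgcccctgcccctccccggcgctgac
Nampt, chr12:32820185-32820334: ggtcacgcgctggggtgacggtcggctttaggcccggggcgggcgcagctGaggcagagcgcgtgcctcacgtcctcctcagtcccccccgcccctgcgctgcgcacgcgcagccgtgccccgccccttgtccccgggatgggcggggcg
Por, chr5:135688995-135689144: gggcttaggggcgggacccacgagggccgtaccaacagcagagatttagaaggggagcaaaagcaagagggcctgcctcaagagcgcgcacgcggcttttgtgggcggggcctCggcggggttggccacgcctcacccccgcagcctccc

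CACGTG, which reads the same on both strands, was searched in the 250 bases before each RefSeq start, and so was the related CACGTT or its reverse complement AACGTG. Of the 6 windows of the 5 genes, the one before the second Tspan4 start held CACGTG, 51 bases before that start and 16 bases before the recorded summit. The other 5 windows held neither form. CACGTG was present in 6.02% of all 32851 promoter windows, in 32.4% of the 2169 windows that overlapped a BMAL1 region and in 4.16% of the other 30682. CACGTT or AACGTG was present in 3.85%, 6.41% and 3.67% of these windows. A match is a description of letters, and a window without one says nothing about the factor.

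The mRNA of none of the 5 genes passed the test between 4-OHT and EtOH (quasi-likelihood test of edgeR, Benjamini-Hochberg adjusted over 13216 genes, threshold 0.05), against 2.44% of all tested genes (0.802% higher and 1.63% lower). At an unadjusted p under 0.05, 1 of the 5 genes stood out, Tspan4, against 10.1% of all tested genes, and DESeq2 called 0 of 5. BMAL1 occupancy, in contrast, was lower with 4-OHT at all 11 regions, against 93.8% of all 4740 regions, with treatments that did not overlap at any of the 11, against 98.0% of all regions, and higher at 0 (0 by DESeq2 with library totals, and 0 at an unadjusted p under 0.05). These calls are relative to library totals. With the regions scaled to each other by TMM, which sets each against the typical region, the median of all regions moved from -1.68 to 0.02 on the log2 scale, 2 of the 11 were called lower (Usp2 and the Tspan4 region at 764 bp), and 6 of the 11 had positive values, none of them called. With so large a share of all regions lower, the count of 11 says little about these genes in particular. The regions were called on the EtOH cells, per the region names, so each was chosen for its signal in that treatment, and how much of the fall comes from that choice was not tested.

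**Figure D1:**
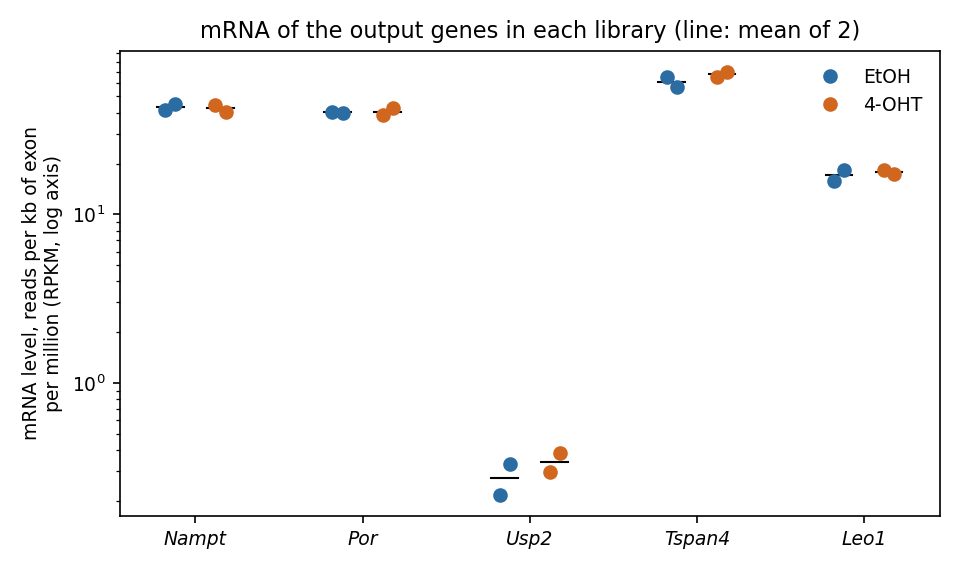
The mRNA level per exon length (RPKM, log axis) of the 5 genes is plotted for each of the 2 EtOH and 2 4-OHT libraries as points, with the mean of each pair as a line. The groups overlap for Nampt, Por, Usp2 and Leo1, while the Tspan4 libraries are at 65.3 and 56.7 RPKM with EtOH and 65.4 and 69.9 RPKM with 4-OHT.

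Nampt encodes the rate-limiting enzyme of NAD salvage from nicotinamide and lies at chr12:32820335-32853369 on the plus strand, with 11 exons. Its level was 190.2 and 205.5 CPM under EtOH and 203.3 and 182.7 CPM under 4-OHT. The groups overlapped, with the highest library in EtOH and the lowest in 4-OHT. The means were 198 ± 10.8 CPM (SD, n = 2) and 193 ± 14.6 CPM, a log2 difference of -0.04 (SE 0.07, 95% interval -0.17 to 0.10; edgeR adjusted p = 0.932).

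The BMAL1 region over the Nampt start spanned chr12:32819940-32820800, and its summit lay 100 bases before the start, in the sequence printed above. Its signal, in reads per 10000000 library reads (RP10M), was 85.9 and 81.1 with EtOH and 24.7 and 21.2 with 4-OHT. Both 4-OHT libraries were far below both EtOH libraries. BMAL1 fell 3.67-fold here (95% interval 2.69 to 4.99; edgeR adjusted p = 1.21e-15). The input libraries had 1.46 and 4.25 RP10M with EtOH and 8.81 and 6.58 RP10M with 4-OHT in the same window, so the input moved the other way (unadjusted p = 0.0205, edgeR adjusted p = 0.964). After subtracting input, 19.0% of the EtOH signal was left. In the 4-OHT libraries the ChIP signal was still 3.14-fold above input, compared with 25.2-fold with EtOH. Under TMM scaling the log2 difference was -0.18 (edgeR adjusted p = 0.750).

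A smaller Nampt region lay in the first part of the gene body at chr12:32820916-32821091, 581 bp downstream of the start and in an intron. It had 18.5 and 10.2 RP10M with EtOH and 3.64 and 4.83 RP10M with 4-OHT, with no overlap. The fall was 3.22-fold (95% interval 1.71 to 6.05; edgeR adjusted p = 4.40e-04). With 4-OHT the ChIP signal was 2.50-fold above input (95% interval 0.975 to 6.39; edgeR adjusted p = 0.0677), and this was the 1 of 11 regions not called above input in that treatment, against 80.6% of all regions that were called. Without EtOH replicate 1 the fall of this region had an edgeR adjusted p of 0.066, and under TMM scaling its log2 difference was 0.016 (adjusted p = 0.992).

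A list of genes for NAD synthesis and use, Nampt among them, gave no call. Of its 24 genes, 19 were tested and 0 passed by edgeR (0 at an unadjusted p under 0.05, 0 by DESeq2). Of all tested genes 2.44% passed and 10.1% had an unadjusted p under 0.05, and the difference from these shares was not tested. The list had a median log2 difference of -0.03 against 0.00 over all tested genes. The single values ran from -0.15 to 0.19. A BMAL1 region lay within 10 kb of 11 of the 19 tested genes, Nampt included, against 27.0% of all tested genes, a difference that was not tested. Parp1, a large consumer of NAD in DNA repair, had such a region at its start with BMAL1 4.32-fold lower, and its mRNA was 43.8 CPM per kilobase of exon (RPKM) with EtOH and 42.1 RPKM with 4-OHT.

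Por encodes cytochrome P450 reductase, which passes electrons from NADPH to microsomal P450 enzymes, and lies at chr5:135689214-135735325 with 16 exons. Its level was 99.8 and 98.6 CPM with EtOH and 95.05 and 104.8 CPM with 4-OHT. The 4-OHT libraries lay on either side of both EtOH libraries. The means were 99.2 ± 0.803 CPM (SD, n = 2) and 99.9 ± 6.93 CPM, a log2 difference of 0.01 (SE 0.07, 95% interval -0.12 to 0.14; edgeR adjusted p = 0.991).

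The region at the Por start, chr5:135689029-135689215, had its summit 37 bases before the RefSeq start and also covered the minus-strand start of Gm40345. It carried 18.5 and 17.6 RP10M with EtOH and 9.46 and 9.17 RP10M with 4-OHT. The libraries of each treatment were close together and the treatments were apart. This was the smallest fall among the 11 regions, 1.94-fold (95% interval 1.17 to 3.22; edgeR adjusted p = 0.0123), and 39.9% of the signal was left after subtracting input. Only 7.89% of all regions had a smaller fall. The call did not hold with DESeq2 and library totals (adjusted p = 0.134), with the input change subtracted (0.188), without EtOH replicate 1 (0.074), without EtOH replicate 2 (0.059) or without 4-OHT replicate 2 (0.051), and TMM scaling gave a log2 difference of 0.74 (0.291).

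A stronger region lay inside Por, in an intron at chr5:135722251-135722491, 33037 bp downstream of the start. The start of Tmem120a was nearer, at 21681 bp, so this region cannot be assigned to Por alone. The region had 32.6 and 30.1 RP10M with EtOH and 11.6 and 15.5 RP10M with 4-OHT. The treatments did not overlap, and the fall was 2.26-fold (95% interval 1.48 to 3.44; edgeR adjusted p = 2.52e-04). With the input change subtracted its adjusted p was 0.090, and under TMM scaling its log2 difference was 0.52 (edgeR adjusted p = 0.389). Both Por regions thus kept more of their signal than the median region of the study, 39.9% and 36.2% against 23.8%. Among other regions with an EtOH signal within 1.25-fold of theirs, a band chosen after these values were seen, 1041 fell more and 91 less than the start region, and 767 fell more and 74 less than the intron region.

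A list of 27 genes held Por itself, P450 enzymes, other haem or electron-transfer proteins, and also Alas1, Dhcr7, Ahr and Ahrr. Of these 24 were tested, 2 were lower and 0 higher by edgeR (4 at an unadjusted p under 0.05, 3 by DESeq2), with a median log2 difference of 0.015. Of all tested genes 1.63% were lower, 0.802% were higher and 10.1% had an unadjusted p under 0.05, and the difference from these shares was not tested. Cyp1b1, a P450 that oxidises steroids and aromatic compounds, had 164.1 and 174.8 CPM with EtOH and 128.5 and 117.6 CPM with 4-OHT. Its fall was -0.47 on the log2 scale (SE 0.07; edgeR adjusted p = 2.45e-06), and the nearest BMAL1 region was 110298 bp from it. Pgrmc2, a haem-binding membrane protein, had 227.3 and 238.0 CPM with EtOH and 173.9 and 170.4 CPM with 4-OHT, a log2 difference of -0.44 (SE 0.06; edgeR adjusted p = 4.69e-06). Both genes had treatments that did not overlap, as did 37.1% of all tested genes. A BMAL1 region at the Pgrmc2 start was itself lower, 13.4 against 4.60 RP10M (2.97-fold; edgeR adjusted p = 1.18e-03).

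Usp2 encodes a deubiquitinase, an enzyme that removes ubiquitin from proteins, and lies at chr9:44067021-44095627 with 15 exons. It was the least expressed of the 5 genes, with 68 and 87 reads under EtOH and 90 and 153 under 4-OHT. These correspond to 0.955 and 1.45 CPM with EtOH and 1.29 and 1.69 CPM with 4-OHT. The groups overlapped, since the lower 4-OHT library was below the higher EtOH library. The means were 1.204 ± 0.352 CPM (SD, n = 2) and 1.49 ± 0.284 CPM, a log2 difference of 0.34 (SE 0.20, 95% interval -0.06 to 0.74; edgeR adjusted p = 0.618), so that at this depth a fold between 0.959 and 1.67 is within the interval. Leaving out EtOH replicate 1 gave 0.052 on the log2 scale, and leaving out EtOH replicate 2 gave 0.66, with no call (edgeR adjusted p = 0.976 and 0.257).

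The Usp2 region, chr9:44084589-44084987, lay 17568 bp downstream of the outermost start of the gene and over an internal RefSeq start, with its summit 73 bases before that start. A RefSeq start of Gm39325 lay 3 bp from this region, so the region cannot be assigned to Usp2 alone. It carried 81.5 and 71.4 RP10M with EtOH and 10.2 and 11.1 RP10M with 4-OHT. The 4-OHT libraries were close together and far below the EtOH libraries. The fall, 7.10-fold (95% interval 4.89 to 10.3; edgeR adjusted p = 1.53e-23), was the largest of the 11, and 98.8% of all regions fell less. Of 322 other regions in the same band of EtOH signal, 2 fell more and 320 less, and their median fall was 3.77-fold. Input was low, at 0 and 2.12 RP10M with EtOH and 1.60 and 3.59 RP10M with 4-OHT, and 10.7% of the signal was left. When the regions were scaled to each other by TMM instead of to library totals, which measures each region against the typical one, the Usp2 region was still lower, by -1.13 on the log2 scale (edgeR adjusted p = 1.90e-03).

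Of 50 listed ubiquitin-specific proteases, 45 were tested and 0 passed by edgeR (1 at an unadjusted p under 0.05, 0 by DESeq2), with a median log2 difference of -0.03. Of all tested genes 2.44% passed and 10.1% had an unadjusted p under 0.05. Usp2 had the highest value of the 45, and the lowest was -0.15. BMAL1 regions lay within 10 kb of 16 of these 45 genes, against the 27.0% of all tested genes. The more abundant members gave close levels in both treatments, as with Usp7, which acts on the p53 regulator MDM2, at 55.4 and 52.4 RPKM.

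**Figure D2:**
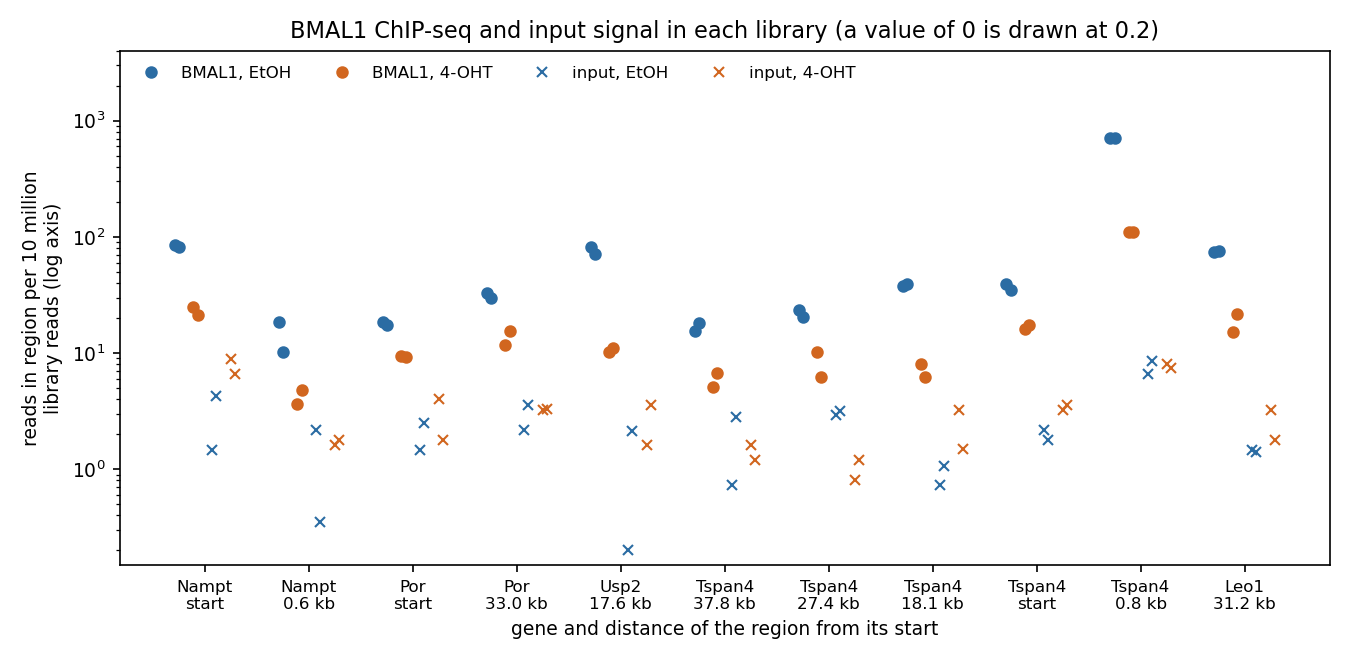
The BMAL1 ChIP signal (circles) and input signal (crosses) of the 11 regions are plotted in RP10M on a log axis for each library, EtOH in blue and 4-OHT in orange, with a value of 0 drawn at 0.2. In every region both EtOH ChIP libraries lie above both 4-OHT ChIP libraries, and the Tspan4 region 764 bp from the start is the strongest.

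Tspan4 encodes a tetraspanin, a membrane protein known as a marker of migrasomes, and lies at chr7:141475236-141493427 with 9 exons. It was the most expressed of the 5 genes per length. Its level was 102.5 and 89.0 CPM with EtOH and 102.6 and 109.7 CPM with 4-OHT. The treatments did not overlap, which was also so for 37.1% of all tested genes. The means were 95.7 ± 9.55 CPM (SD, n = 2) and 106 ± 5.02 CPM, a log2 difference of 0.15 (SE 0.07, 95% interval 0.01 to 0.29; unadjusted p = 0.039, edgeR adjusted p = 0.448).

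Tspan4 had the strongest of the 11 regions, at chr7:141476000-141476883, 764 bp downstream of the outermost start and over the second RefSeq start, with the CACGTG printed above inside it. Its signal was 709.5 and 707.7 RP10M with EtOH and 109.2 and 110.1 RP10M with 4-OHT, from 958 and 1248 reads and from 150 and 228 reads. The libraries of each treatment were nearly equal. BMAL1 fell 6.46-fold (95% interval 5.51 to 7.57; edgeR adjusted p = 3.20e-112), and 14.5% of the signal was left after subtracting input. With 4-OHT it was still 14.4-fold above input, compared with 90.4-fold with EtOH. By EtOH signal it ranked 29 of 4740 regions. Scaled to the typical region by TMM, it was lower by -0.99 on the log2 scale (edgeR adjusted p = 3.64e-17), and of 26 other regions within 1.25-fold of its signal 1 fell more and 25 less.

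The region on the outermost Tspan4 start, chr7:141475212-141475739, gave a smaller fall. It carried 39.3 and 35.2 RP10M with EtOH and 16.0 and 17.4 RP10M with 4-OHT, and fell 2.21-fold (95% interval 1.48 to 3.30; edgeR adjusted p = 1.88e-04). After subtracting input 37.8% of its signal was left, against 14.5% at the neighbouring region. In its band of EtOH signal 681 regions fell more and 42 less, and under TMM scaling its log2 difference was 0.55 (edgeR adjusted p = 0.312). The start of Polr2l, a subunit gene of RNA polymerases, lies 59 bp away, so the region cannot be assigned to Tspan4 alone.

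The other 3 Tspan4 regions lay upstream, within or at other genes. The nearest, chr7:141456828-141457131, in an intron of the lipase gene Pnpla2, had 37.8 and 39.1 RP10M with EtOH and 8.01 and 6.28 RP10M with 4-OHT, a 5.51-fold fall (95% interval 3.45 to 8.78; edgeR adjusted p = 4.77e-12). The region at the start of the ribosomal gene Rplp2, chr7:141447608-141447825, had 23.7 and 20.4 RP10M with EtOH and 10.2 and 6.28 RP10M with 4-OHT, a 2.77-fold fall (edgeR adjusted p = 1.21e-04). The third, chr7:141437272-141437458, in an intron of the mitochondrial carrier gene Slc25a22, had 15.6 and 18.1 RP10M against 5.09 and 6.76 RP10M, a 2.80-fold fall (edgeR adjusted p = 5.70e-04). None of the 3 had overlapping treatments, which was also so for 98.0% of all regions. Under TMM scaling their log2 differences were -0.77, 0.22 and 0.21 in this order (edgeR adjusted p = 0.219, 0.827 and 0.857). With the input change subtracted, the Slc25a22 region had an adjusted p of 0.442 and the Rplp2 region a log2 difference of 0.04 (adjusted p = 0.971).

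Of 31 listed tetraspanin genes 22 were tested, 1 was lower and 0 were higher by edgeR (7 at an unadjusted p under 0.05, 1 by DESeq2), with a median log2 difference of 0.09. Of all tested genes 1.63% were lower, 0.802% were higher and 10.1% had an unadjusted p under 0.05, and the difference from these shares was not tested. The lower gene was Tspan13, with 36.3 and 35.8 CPM with EtOH and 27.4 and 26.9 CPM with 4-OHT, a log2 difference of -0.41 (SE 0.08; edgeR adjusted p = 2.90e-04). Its treatments did not overlap, as for 37.1% of all tested genes, and its nearest BMAL1 region was 114299 bp away. The most abundant tetraspanins, Cd63 at 505 and 490 RPKM and Cd9 at 230 and 223 RPKM, were not called. BMAL1 regions lay within 10 kb of 4 of the 22 tested genes, against the 27.0% of all tested genes.

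Leo1 encodes a subunit of the PAF1 complex, which travels with RNA polymerase II during elongation, and lies at chr9:75441524-75466432 with 12 exons. Its level was 34.3 and 40.2 CPM with EtOH and 40.1 and 38.2 CPM with 4-OHT. The groups overlapped, and the lowest and the highest library were both EtOH libraries. The means were 37.3 ± 4.16 CPM (SD, n = 2) and 39.2 ± 1.37 CPM, a log2 difference of 0.07 (SE 0.08, 95% interval -0.09 to 0.23; edgeR adjusted p = 0.879).

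No BMAL1 region lay within 10 kb of Leo1. The 1 region within 50 kb, chr9:75409980-75410323, was 31201 bp upstream and covered the starts of Mapk6, which encodes the kinase ERK3, and of 4933433G15Rik, so it cannot be assigned to Leo1. It had 74.8 and 74.9 RP10M with EtOH and 15.3 and 21.7 RP10M with 4-OHT, with no overlap. The fall was 3.94-fold (95% interval 2.83 to 5.48; edgeR adjusted p = 3.53e-15) and 21.8% of the signal was left. Under TMM scaling the log2 difference was -0.28 (edgeR adjusted p = 0.610). Mapk6 mRNA was 195 ± 6.95 CPM with EtOH and 183 ± 6.77 CPM with 4-OHT, a log2 difference of -0.10 (edgeR adjusted p = 0.719). Of 25 tested genes of the PAF1 complex and other elongation factors 0 passed by edgeR (0 at an unadjusted p under 0.05, 0 by DESeq2), with a median log2 difference of -0.03. Over all tested genes 2.44% passed and 10.1% had an unadjusted p under 0.05, and the difference from these shares was not tested. Supt5, a subunit of the elongation factor DSIF, was at 51.1 RPKM with EtOH and 51.2 RPKM with 4-OHT.

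Compared per length, Tspan4 was the most expressed of the 5 genes with EtOH, at 61.0 ± 6.08 RPKM (SD, n = 2), followed by Nampt at 43.5 ± 2.38, Por at 40.4 ± 0.327, Leo1 at 17.0 ± 1.90 and Usp2 at 0.274 ± 0.080 RPKM. Nampt and Por, neighbours in this order, did not overlap with EtOH but overlapped with 4-OHT. Among all tested genes with EtOH, 90.6% had a lower level than Tspan4, 85.2% than Nampt, 83.7% than Por, 61.3% than Leo1 and 8.75% than Usp2. Genes most like each member in log2 CPM over the 4 mRNA libraries, by Euclidean distance, were Dnm1l (0.051) for Nampt, Rnf44 (0.033) for Por, Kcnn1 (0.298) for Usp2, Col8a2 (0.046) for Tspan4 and Rpl36a (0.079) for Leo1.

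**Figure D3:**
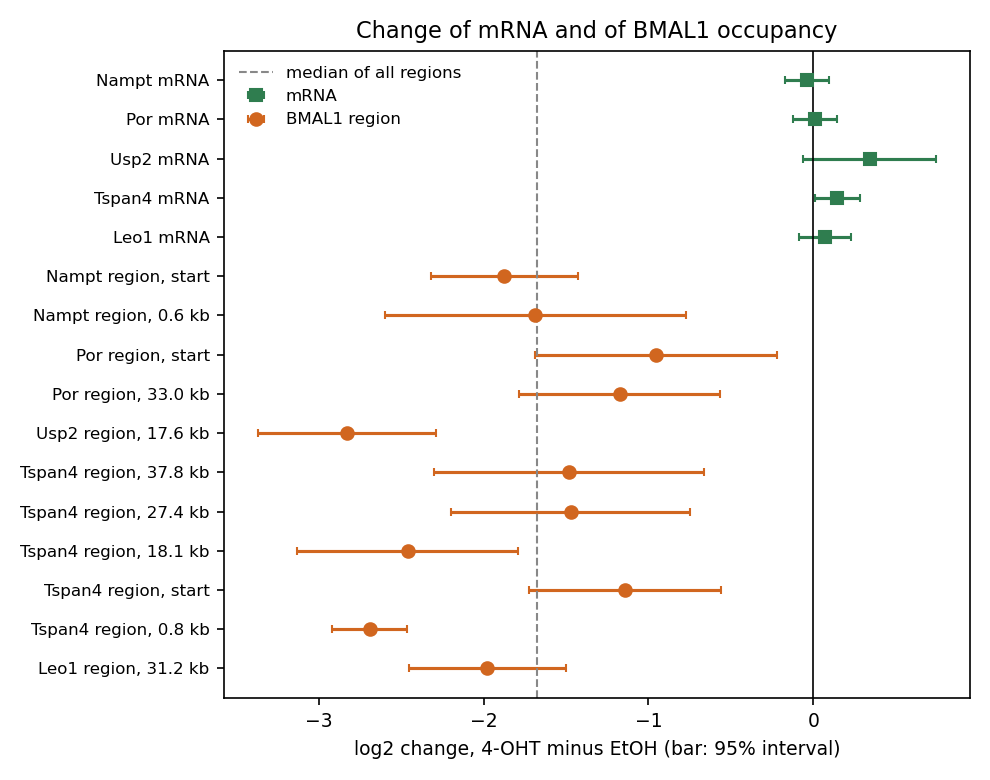
Log2 differences (4-OHT minus EtOH) with 95% intervals are plotted for the mRNA of the 5 genes (squares) and for BMAL1 at their 11 regions (circles), with the median of all regions as a dashed line. The region values run from -2.83 to -0.95, and the mRNA values from -0.04 to 0.34.

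Among the 11 regions the fall ranged from 1.94-fold to 7.10-fold with a median of 3.22-fold, and the median of all 4740 regions was 3.20-fold (quartiles 2.52 and 4.02). Of the 11, 5 fell less and 6 more than that median. In their own 1.25-fold bands of EtOH signal, 179 regions fell more and 123 less than the Nampt start, 355 and 672 for the Nampt region at 581 bp, and 141 and 198 for the Leo1 region. The Tspan4 regions at 37778, 27411 and 18105 bp had 576, 627 and 28 regions with a larger fall and 543, 444 and 690 with a smaller one. Input differed between treatments at 0 of the 11 by edgeR (0 of 4740 regions), and 2 had an unadjusted p under 0.05, the Nampt start and the Rplp2 region, against 4.60% of all regions. All 11 were above input with EtOH, as were 99.5% of all regions, and 10 of 11 with 4-OHT. In the 4 pairs formed by the strongest Tspan4 region with the strongest region of each other gene, the difference in log2 fall was -0.83 for Nampt, -1.47 for Por, 0.15 for Usp2 and -0.65 for Leo1, where a negative value means a larger fall at Tspan4. Each pair gave an exact two-sided permutation p of 0.333 (adjusted over 4 pairs 0.333), which is the smallest this design allows.

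**Figure D4:**
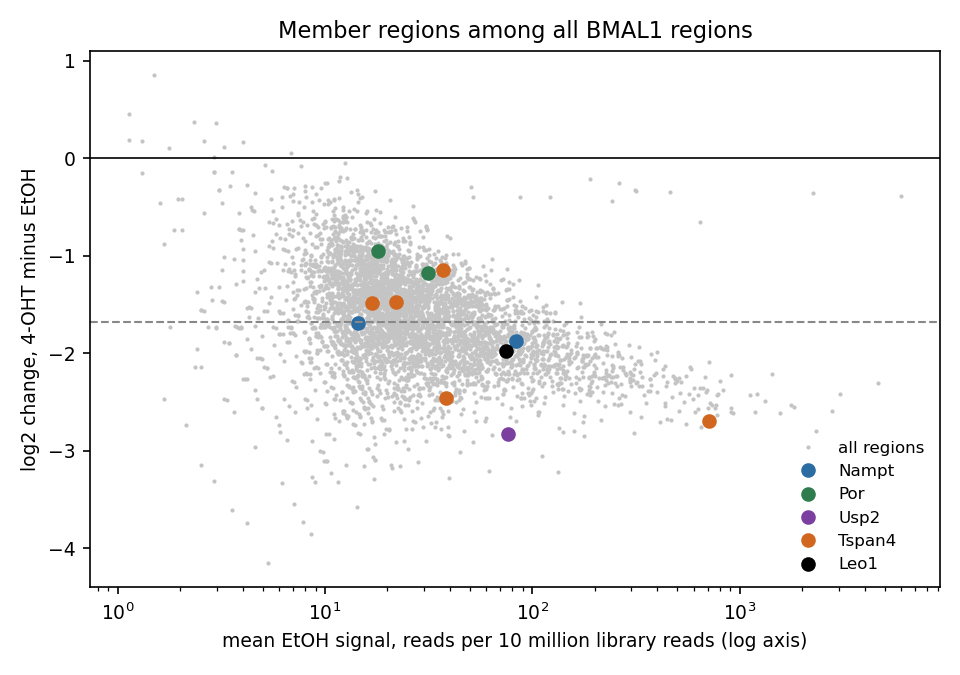
Each of 4739 regions is a point, with the EtOH signal (RP10M, log axis) against the log2 difference, and the 11 regions of the 5 genes are marked. The dashed line is the median of all regions, -1.68, and the marked regions lie on both sides of it; 1 region without 4-OHT reads is not drawn.

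The core clock targets give a yardstick, although their list was known from earlier results. At all 14 listed genes the nearest region was lower, as were 93.8% of all 4740 regions. The median fall of the 14 was 5.70-fold (from 3.76-fold at Tef to 6.93-fold at Gm129), against 3.20-fold over all regions. Their EtOH signals were 105 to 3031 RP10M. The Tspan4 region is within this range of fall and signal, and the fall of the Usp2 region was above the highest of the 14 at a signal below theirs, differences that were not tested. The mRNA of Nr1d1, Nr1d2 and Per3 was lower and that of Cry1, Cry2, Hlf, Gm129, Bhlhe40 and Bhlhe41 higher, while 5 of the 14 were not called. Of all tested genes 2.44% were called. Per1, Per2, Nr1d1 and Nr1d2 are the genes targeted in these cells, and PER2-ER reads cannot be told apart from Per2. Their mRNA is therefore a limited yardstick. Nr1d1 fell from 52.6 ± 4.74 to 17.0 ± 0.83 CPM (SD, n = 2) in the same libraries in which the 5 genes gave no call. Its change was larger than that of 99.9% of all tested genes.

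The genes next to these regions gave no call either. Of 11 tested neighbours, 0 were called by edgeR (0 at an unadjusted p under 0.05, 0 by DESeq2). Over all tested genes 2.44% were called and 10.1% had an unadjusted p under 0.05, and the difference from these shares was not tested. Levels with EtOH and 4-OHT were, for instance, 24.5 and 24.7 CPM for Slc25a22 and 44.5 and 43.7 CPM for Rplp2. Some neighbours had few reads, such as 4933433G15Rik with 13 and 12 under EtOH and 13 and 20 under 4-OHT. In the authors' deposited table of differential expression, Nampt had a log2 value of -0.03 (adjusted p 0.999), Por 0.00 (0.999), Tspan4 0.11 (0.754) and Usp2 0.05 (0.999), and all 4 were marked as not significant there. The Usp2 value there had a standard error of 0.055 at a mean of 96.9 reads. By edgeR here Usp2 had 0.34 with a standard error of 0.20, so the log2 values are unlike measures. That table had 3317 rows, and no row under the symbol Leo1 was found in it.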

How the data were processed

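Gene counts were deposited by the authors as made with featureCounts v1.5.0-p1 on mm10, reverse stranded, per the file headers. Regions were named as MACS2 peaks of the control, and bedtools 2.25.0 is among the submitters' processing notes. The deposited region files held reads per region, and per the file layout the authors' peak score, fold enrichment and -log10 p and q, which were not used. The deposited signal table is named RPKM, but its values equal 5 plus reads per 10000000 library reads (36821 of 36821 values within 1e-06), so library totals were taken from it. The authors' deposited DESeq2 table holds log2 fold changes and p-values. No aligner is named in these sources.

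R 4.3.3 and edgeR 4.0.16 served for the tests of genes (quasi-likelihood, TMM, low-count filter, Benjamini-Hochberg, threshold 0.05), and regions likewise on library totals without TMM. Scripts were tested on simulated data. DESeq2 1.42.0, other scalings, no filter, a replicate block, left-out libraries and input subtraction were alternatives. RPKM levels used exon length. The members and lists were chosen with earlier results of these data known. Named were the 5 genes, called list genes, up to 3 list genes of highest level, genes nearest each region, the most similar gene to each member and the clock list.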

Additional observations from a re-analysis of the deposited data

How the results depend on the processing

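Scaling decided most region results. With TMM over the regions, which centres the typical region near 0 (median 0.02), 2 of 11 regions were lower (228 of all), and with DESeq2's own size factors (median 0.03) 1 was lower (133 of all) while 8 of 11 had no adjusted p. Under TMM the log2 difference changed sign at the Nampt region 581 bp from the start (0.016), the Por start (0.74), the Por intron (0.52), and the Tspan4 regions at 37778 bp (0.21), at 27411 bp (0.22) and at the start (0.55). With the input change subtracted 7 of 11 were lower (2395 of all), and the Rplp2 region was at 0.037. DESeq2 with library totals gave 10, regions within 10 kb 5, and leaving out 1 library 9 to 11. TMM over the regions also scales ChIP libraries against input libraries, so the typical enrichment is largely taken out. A negative ratio to input then means less enrichment than the typical region, not a signal below input. By library totals all 11 regions were above input with EtOH and 10 with 4-OHT. Over input with TMM, 1 region was called with 4-OHT and 3 with EtOH. The log2 ratio to input then turned negative with 4-OHT at the Nampt start (-0.26) and 581 bp region (-0.59), at Usp2 (-0.084) and at the Tspan4 region at 18105 bp (-0.085). With EtOH it did so at the Por start (-0.66) and intron (-0.40) and at the Tspan4 regions at 37778 bp (-0.74) and 27411 bp (-0.91). Leaving out 1 library gave 7 to 10 regions above input with 4-OHT, with 7 without 4-OHT input replicate 2.

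For mRNA, leaving out 1 library moved Nampt between -0.12 and 0.039, Por between -0.063 and 0.076 and Leo1 between -0.042 and 0.19 on the log2 scale, and the direction of all 3 changed, with no call. Usp2 moved between 0.052 and 0.66 and Tspan4 between 0.051 and 0.25, with no call. All genes gave 106 higher calls, against 62 with DESeq2, 60 with the replicate block and 40 to 196 without 1 library, and lower calls ranged from 140 to 247 without 1 library. Replicate numbers did not pair the libraries (correlation of deviations -0.168 for mRNA and 0.011 for ChIP). The replicate block left 0 of 5 genes and 11 of 11 regions called. A crossed block, chosen after seeing the data, gave 1 of 5 genes (Tspan4) and 518 higher and 611 lower calls among all genes. The cause of these shifts was not tested. With 2 libraries a group, small mRNA differences were not detectable, above all for Usp2 with its few reads.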
